A study of Talinum fruticosum with 24 samples.

Results

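Class III peroxidases are secreted haem enzymes of plants, here described in leaves of Talinum triangulare, a plant that moves between C3 photosynthesis and CAM (crassulacean acid metabolism). The members were selected by their annotation text: every row of the authors' deposited count table whose short description reads "Peroxidase superfamily protein" was taken, over all 8 groups of libraries. This gave 47 of the 22079 Arabidopsis thaliana identifiers in the table. No measured value enters that rule, but the family was picked with its levels in CAM and reC3 leaves known from earlier work on these libraries, so the counts of members that differ between modes describe the family and are no independent evidence about it. The table's own annotation places 46 of the 47 in the plant, fungal and bacterial haem peroxidase family. The remaining row, AT3G01420, is annotated as an alpha-dioxygenase, an enzyme that oxidises fatty acids, and had no count in any library.

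Class III peroxidases are made with a signal peptide, and most act in the cell wall or the vacuole. With H2O2 as oxidant they couple monolignols into lignin and cross-link phenolics and extensins, which stiffens the wall, and in another cycle they can release reactive oxygen species that loosen it. H2O2 outside the cell comes largely from superoxide made by plasma membrane NADPH oxidases, and laccases polymerise monolignols with oxygen in place of H2O2. In the annotation, 32 members are placed in the endomembrane system, 11 in a cell wall or the apoplast and 2 elsewhere, and 2 have no place.

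Mature leaves were taken after 12 d of drought, when the plants were in CAM, or after 12 d of drought followed by 2 d of re-watering, when they were back in C3 photosynthesis (reC3). All plants had first been well watered for 28 d. Leaves of each mode were harvested at midday (MD, ZT6, that is 6 h after lights on by zeitgeber time), at the day's end (ED, 12 h), in mid-night (MN, 18 h) and at the night's end (EN, 24 h), with 3 biological replicates per group and 24 libraries in all. No group held leaves that never went through drought, so photosynthetic mode and water supply cannot be told apart, nor a low level in CAM from a rise upon re-watering. Per the labels, ED and EN libraries were made for this series while those of MD and MN came from an earlier one, so values are also given within each of these sets.

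Libraries held 4310225 to 8756145 counts. Scaling factors by the trimmed mean of M-values (TMM) were 0.608 to 1.43, with the lowest in reC3 EN replicate 1. Levels are in CPM, the counts scaled to the same adjusted library total. They are not divided by transcript length, so they compare 1 gene between libraries and not 1 gene with another. Talinum reads were assigned to Arabidopsis identifiers, and reads of a Talinum peroxidase can be shared among close Arabidopsis paralogs, so each member's value is that of an identifier. In whole leaves, fewer cells of a type and less RNA per cell cannot be told apart.

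A count was found for 46 members, and 30 to 43 of them were seen in any 1 library. The filter on low counts (1.42 CPM in at least 3 libraries) left 32 members to be tested. It was reached in 3 or more CAM libraries by 16 of these and in 3 or more reC3 libraries by 31. For members that passed through their reC3 libraries alone, the filter itself favoured a lower level in CAM. The other 14 counted members had 3 to 108 counts over all 24 libraries and at most 3.14 CPM in any group mean.

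Most peroxidase identifiers were lower in CAM leaves than in reC3 leaves. In the average of the 4 times, 29 of the 32 tested members were lower in CAM and 1, AT1G71695, was higher (edgeR quasi-likelihood test, adjusted p under 0.05). Over all 14065 genes tested, 32.5% were lower and 32.3% higher by the same rule. The median log2 fold change (CAM over reC3) of the 32 was -2.38, with a range of -5.17 to 2.50, and that of all genes was 0.014. Among the 15 members that reached the filter in both modes, 14 were lower and 1 was higher, and the median was -2.17. AT3G01190 had no count in CAM at MD, and with it at a floor of 3 counts over that group the median of the 32 was -2.33.

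The split held its direction at each time of day. At MD 26 members were lower and 1 higher, against 21.3% and 22.7% of all genes. At ED the counts were 22 and 1 (23.9% and 21.5% of all genes), at MN 20 and 1 (20.5% and 18.1%), and at EN 24 and 1 (29.2% and 24.1%). The member higher in CAM was AT1G71695 each time. For members that passed the filter through their reC3 libraries alone, the filter itself favoured a lower level in CAM. The 15 that reached it in both modes were therefore counted apart. By day, 12 of these 15 were lower at MD and 10 at ED. By night, 11 were lower at MN and 13 at EN, and 8 were lower at every time. Of all 32 tested members, 15 were lower at all 4 times, as were 7.87% of all genes. AT1G71695 was higher at all 4 times, as were 4.65% of all genes. A further 7 members were lower at 3 times, 3 at 2 times and 5 at 1 time. Every one of the 12 CAM libraries lay below every one of the 12 reC3 libraries for 6 members (AT4G21960, AT5G05340, AT2G18980, AT2G37130, AT5G51890 and AT5G42180), and 3.58% of all genes had this order. Of these 6, 3 reached the filter in both modes. AT2G37130, AT5G51890 and AT5G42180 passed it through their reC3 libraries alone. No member had every CAM library above every reC3 library, against 1.13% of all genes. Within MD and MN alone, 25 members were lower and 1 higher in the average, against 25.2% and 26% of all genes. Within ED and EN alone, 26 were lower and 1 higher, against 29.4% and 25.7% of all genes.

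**Figure D1:**
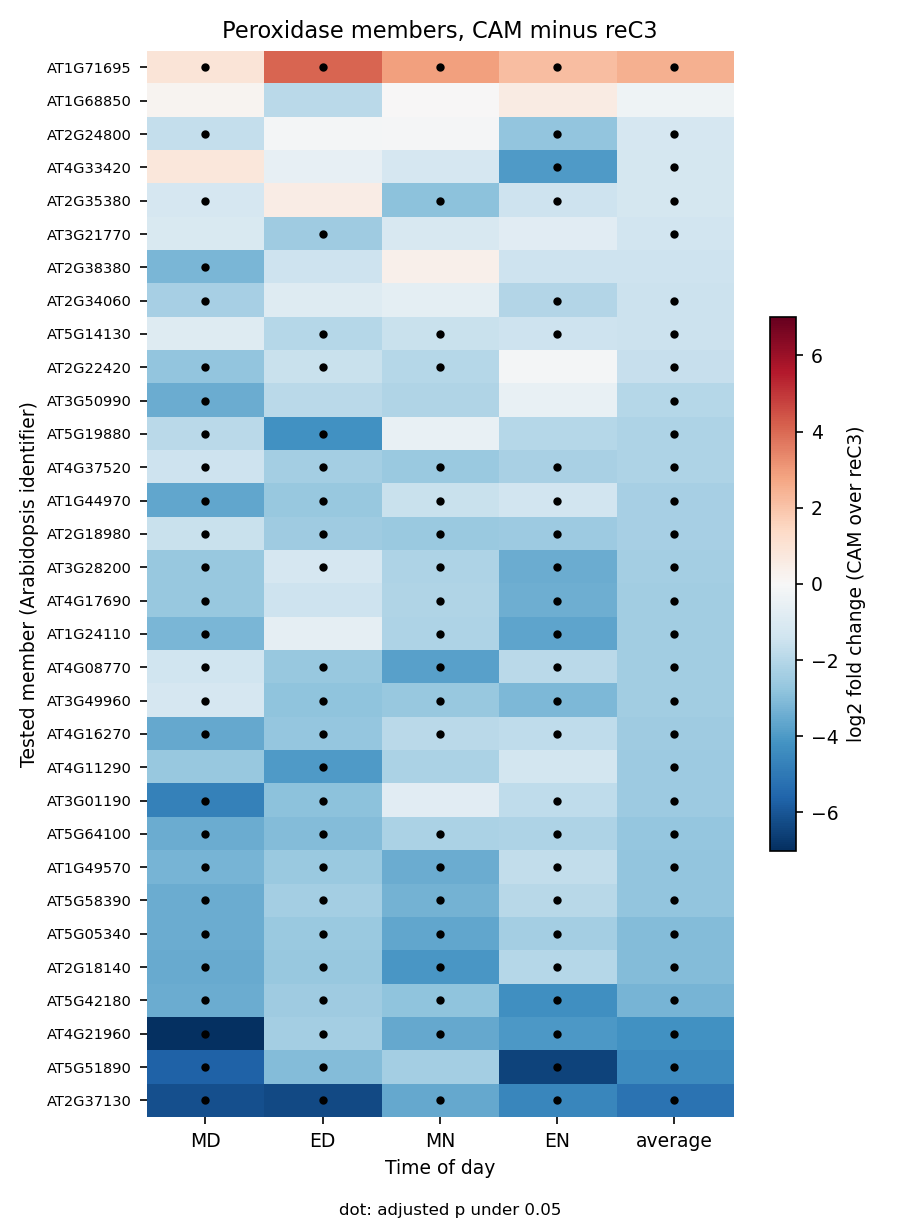
Log2 fold change (CAM over reC3) of the 32 tested members at each time of day and in the average of the 4 times, with blue for lower and red for higher in CAM and a dot for an adjusted p under 0.05. AT1G71695 is red in every column, AT4G21960 has the darkest cell at MD (-7.03), and most other cells are blue. Values of members with 3 counts or fewer in a group, such as AT2G37130 and AT5G51890, depend on the fit's prior count.

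AT4G21960, named PRXR1 in Arabidopsis, held most of the family's counts, with 30301 in CAM and 271891 in reC3. At MD it had 12.5, 6.58 and 16.4 CPM in CAM, against 1972, 1535 and 1117 CPM in reC3. At ED it had 763, 648 and 767 CPM in CAM, against 4717, 3424 and 3096 CPM in reC3. The groups stayed far apart at both times, but the CAM level at MD was far below that at ED. At MN it had 281, 375 and 301 CPM in CAM, against 3809, 3444 and 4010 CPM in reC3. At EN it had 259, 294 and 173 CPM in CAM, against 4387, 2750 and 4638 CPM in reC3. The highest CAM library of any time (767 CPM) lay below the lowest reC3 library of any time (1117 CPM). In edgeR's test the log2 fold change was -4.24 ± 0.162 in the average (SE; adjusted p = 5.30e-15). By day it was -7.03 ± 0.372 at MD and -2.37 ± 0.296 at ED, and by night -3.56 ± 0.311 at MN and -4.02 ± 0.318 at EN. It was -5.29 within MD and MN and -3.19 within ED and EN.

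AT1G71695, which the annotation places in the cell wall and the vacuole, went the other way. At MD it had 17.7, 11.3 and 19.5 CPM in CAM, against 11.2, 8.53 and 6.38 CPM in reC3. At ED it had 114, 110 and 44.3 CPM in CAM, against 6.73, 5.44 and 3.59 CPM in reC3. The MD groups nearly touched, while at ED the lowest CAM library was well above the highest reC3 library. At MN it had 97.3, 102 and 134 CPM in CAM, against 13.2, 18.9 and 14.1 CPM in reC3. At EN it had 30.5, 30.8 and 32.4 CPM in CAM, against 9.77, 4.07 and 6.99 CPM in reC3. Both night groups were separate as well. Its log2 fold change was 2.50 ± 0.169 in the average (adjusted p = 4.42e-11, edgeR). By day it was 0.90 ± 0.343 at MD and 4.07 ± 0.350 at ED, and by night 2.85 ± 0.318 at MN and 2.17 ± 0.347 at EN. The call at MD (adjusted p = 0.0375, edgeR) was lost with another scaling and without any 1 of 5 libraries, and the log2 fold change stayed between 0.72 and 1.12. Without CAM MD replicate 3 its adjusted p was 0.134, and without reC3 MD replicate 3 it was 0.148 (edgeR). The average was 1.88 within MD and MN and 3.12 within ED and EN.

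**Figure D2:**
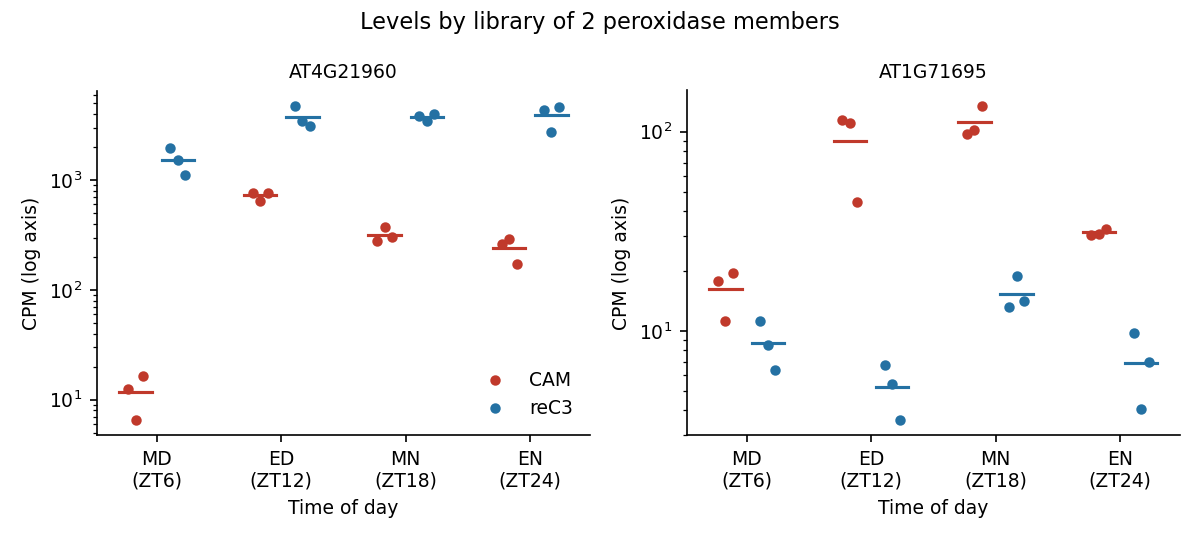
Levels in CPM (log axis) of AT4G21960 and AT1G71695 in each library by time of day, with CAM left of reC3, a point per library and a line at the mean of 3 libraries. AT4G21960 is lower in CAM at every time, with its lowest mean at MD (11.8 CPM), and AT1G71695 is higher in CAM, most at ED (89.6 against 5.25 CPM).

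Summed over the family, AT4G21960 decided the total. It made up 7.43% to 14.1% of the members' scaled counts in CAM libraries at MD and 63.1% to 84.9% in the other CAM libraries, against 73.0% to 96.6% in reC3 libraries. At MD the other 46 members together reached 87.9 ± 10.03 CPM in CAM, against 408 ± 6.49 CPM in reC3 (SD, n = 3 each). At ED their sums were 162 ± 22.7 CPM in CAM, against 321 ± 24.6 CPM in reC3. No CAM library reached a reC3 library at either time. At MN the sums were 157 ± 16.9 CPM in CAM, against 238 ± 18.2 CPM in reC3. At EN they were 66.9 ± 3.73 CPM in CAM, against 201 ± 96.5 CPM in reC3. The wide spread of the last group came from reC3 EN replicate 1, with 311 CPM, against 130 and 162 CPM in its partners. Without that library 22 of 33 tested members were lower in CAM at EN. In reC3 the sum was highest at MD and lowest at EN, whereas in CAM it was highest at ED and MN. AT1G71695 alone averaged 89.6 CPM at ED and 111 CPM at MN in CAM, against 16.2 CPM at MD and 31.2 CPM at EN. The higher CAM sums at ED and MN thus rested largely on this 1 member.

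**Figure D3:**
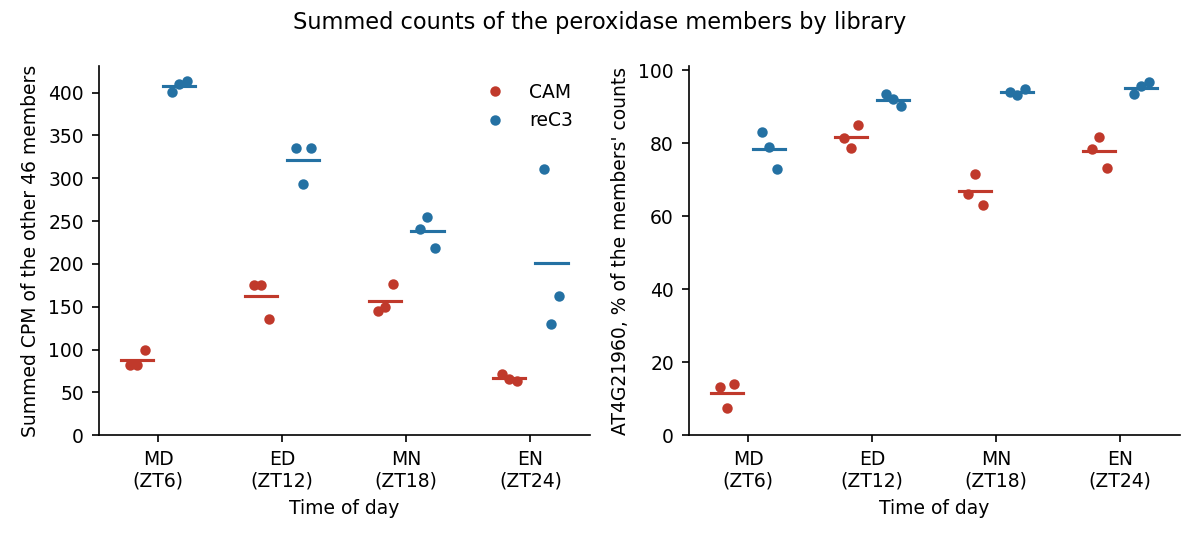
Left, summed CPM of the 46 members other than AT4G21960 in each library, with CAM left of reC3 and a line at the group mean. Right, the share of the members' counts that fell on AT4G21960, in percent, which is 7.43% to 14.1% in CAM at MD and 63.1% or more in every other library.

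The next 8 members by mean level were all lower in CAM in the average, with log2 fold changes of -3.03 to -1.61. AT5G05340, placed in the apoplast and cell wall, had 2.08 to 8.32 CPM in the 12 CAM libraries (median 3.62) and 10.8 to 77.5 CPM in the 12 reC3 libraries (median 33.3). Its log2 fold change was -3.03 ± 0.0966 (adjusted p = 4.97e-16, edgeR), the smallest p of the family, with -3.47 (MD), -2.60 (ED), -3.66 (MN) and -2.39 (EN) by time. AT5G58390 had the same order of times as AT5G05340 in each mode and changed by -2.77 ± 0.152, and AT1G49570 by -2.77 ± 0.152. Within MD and MN these 2 were at -3.39 and -3.36, and within ED and EN at -2.15 and -2.17. Over the 24 libraries the ratio of AT5G05340 to AT5G58390 had an SD of 0.483 on the log2 scale, that of AT5G58390 to AT1G49570 an SD of 0.551 and that of AT5G05340 to AT1G49570 an SD of 0.575. Among the 45 pairs of the 10 members with the most counts, the pair described next was the only other one with an SD below 0.575.

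The closest pair was AT3G49960 and AT4G37520. Their ratio ran from 0.375 to 1.24 with a median of 0.991 and an SD of 0.429 on the log2 scale. The level of AT3G49960 was 15.6 ± 2.39 CPM in CAM against 35.7 ± 7.97 CPM in reC3 at MD, and 8.61 ± 2.80 CPM in CAM against 60.7 ± 11.7 CPM in reC3 at ED (SD, n = 3 each). That of AT4G37520 was 13.6 ± 2.29 CPM in CAM against 36.6 ± 8.73 CPM in reC3 at MD, and 10.4 ± 4.07 CPM in CAM against 54.6 ± 11.01 CPM in reC3 at ED. Whether both identifiers hold reads of the same Talinum transcripts was not tested. The averages were -2.45 ± 0.160 for AT3G49960 and -2.17 ± 0.160 for AT4G37520 (adjusted p = 1.30e-11 and 1.06e-10, edgeR).

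AT2G18980 had 0.946 to 6.26 CPM in CAM and 7.44 to 27.2 CPM in reC3, with no overlap, and changed by -2.30 ± 0.154. AT3G28200, placed in the plant cell wall, changed by -2.35 ± 0.184. At EN it had 3.29, 5.54 and 4.35 CPM in CAM, against 86.6, 33.1 and 27.1 CPM in reC3, so 1 reC3 library stood far above its partners. The log2 fold change at EN was -3.46, and -2.77 without reC3 EN replicate 1. AT2G22420 was the member of this group whose modes met. At EN it had 1.94, 1.28 and 1.70 CPM in CAM, against 1.88, 2.30 and 1.33 CPM in reC3, which overlap. Its log2 fold change was -1.61 ± 0.262 in the average (adjusted p = 1.68e-05, edgeR), -2.37 within MD and MN, and -0.85 within ED and EN, where the call was lost (adjusted p = 0.0613, edgeR).

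**Figure D4:**
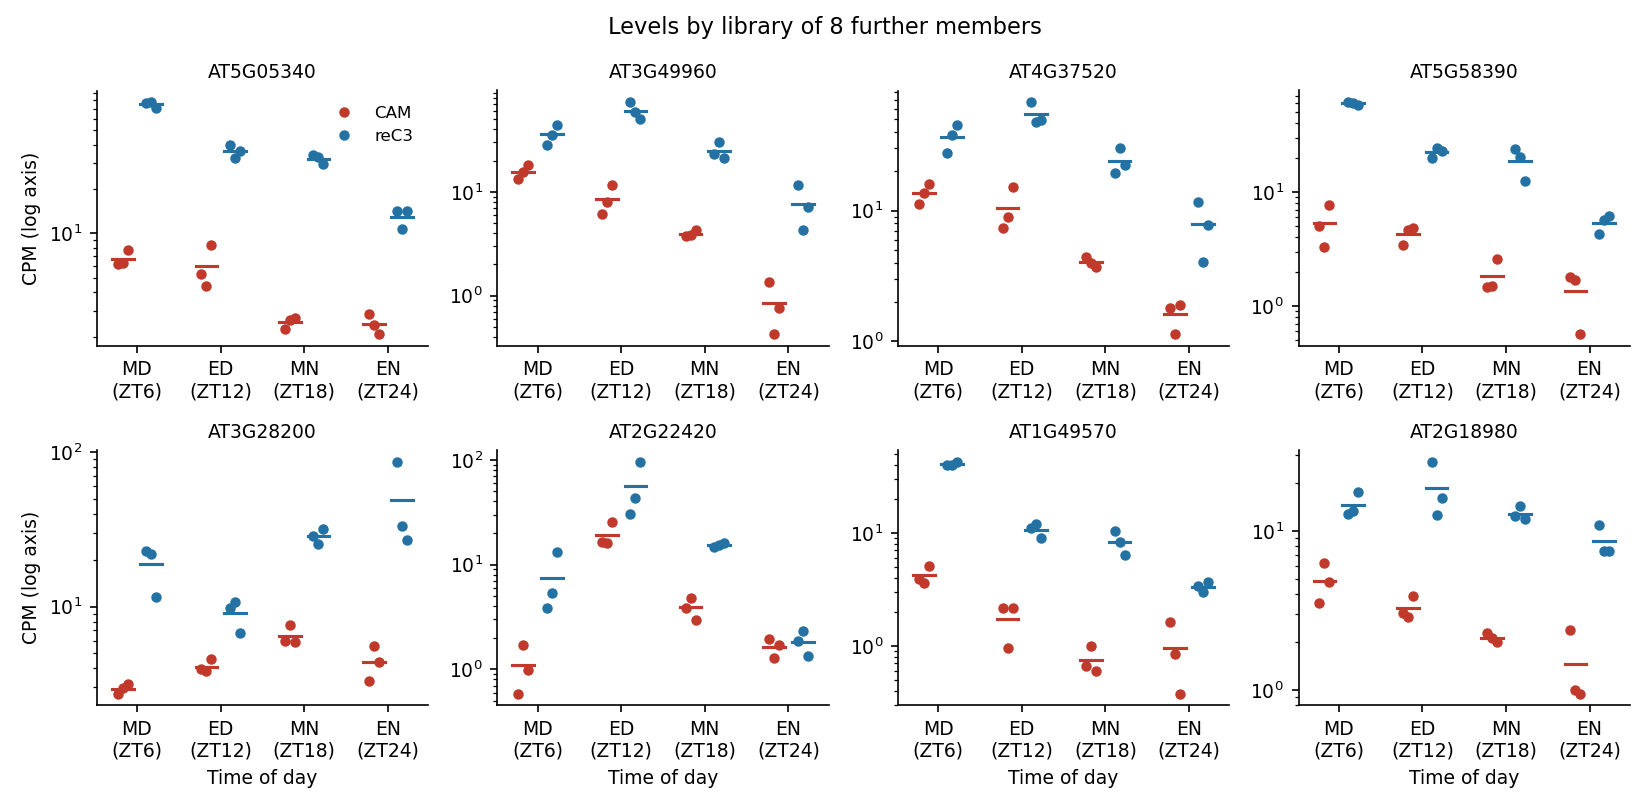
Levels in CPM (log axis) of the 8 members that follow AT4G21960 and AT1G71695 by mean level, with CAM left of reC3 at each time, a point per library and a line at the group mean. The reC3 libraries lie above the CAM libraries in each panel except for AT2G22420 at EN, where they overlap.

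Some members were close to absent in CAM and passed the filter through their reC3 libraries alone, which favoured a lower level in CAM. AT2G37130 had 16 counts in the 12 CAM libraries, where 4 had none, and 663 counts in the 12 reC3 libraries. At MD it had 0.39, 0.157 and 0.165 CPM in CAM, against 13.2, 20.7 and 18.9 CPM in reC3. The pooled reC3 level was 42.7 times that in CAM (95% counting interval 26.1 to 75.2), and the fitted log2 fold change of -5.17 ± 0.315 depends on the prior count, since CAM at ED held 1 count. AT5G51890, annotated as a peroxidase that lignifies tracheary elements in Arabidopsis roots, had 5 counts in CAM and 203 in reC3, a pooled ratio of 41.9 in favour of reC3 (17.6 to 130). Its reC3 level was 4.17, 5.39 and 1.78 CPM at MD and 8.08, 2.30 and 8.65 CPM at EN, but 0.231 to 0.653 CPM at ED and 0.257 to 0.80 CPM at MN. AT5G42180 had 21 counts in CAM and 182 in reC3, a ratio of 8.93 (5.67 to 14.8). These last 2 were named after their values were seen. Counting intervals cover counting error only.

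AT5G64100, placed in the cell wall, and AT4G16270 shared a peak at MD in reC3. AT5G64100 averaged 1.40 ± 0.510 CPM in CAM, against 15.2 ± 2.06 CPM in reC3, at MD, and at the other times at most 0.296 CPM in CAM, against at most 2.12 CPM in reC3. At MD AT4G16270 had 2.53, 0.313 and 1.65 CPM in CAM, against 21.2, 15.6 and 15.4 CPM in reC3. In the average they changed by -2.71 ± 0.232 and -2.48 ± 0.267 (adjusted p = 1.08e-09 and 3.97e-08, edgeR). Both passed the filter through their reC3 libraries alone, which favoured a lower level in CAM.

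Members with a role in the table's annotation were also named for that annotation. AT4G08770 (Prx37), an apoplastic peroxidase expressed mainly in vascular bundles of Arabidopsis, had a mean of 0.362 CPM in CAM, against 5.20 CPM in reC3, at MN. Its log2 fold change was -2.44 ± 0.297 in the average (adjusted p = 2.37e-07, edgeR), and it was lower in CAM at all 4 times. AT3G50990, which acts in mucilage extrusion from the Arabidopsis seed coat, had a mean of 0.575 CPM in CAM, against 6.41 CPM in reC3, at MD, and no other group mean exceeded 0.537 CPM. It changed by -1.998 ± 0.473 in the average (adjusted p = 0.00084, edgeR), and MD was the one time at which it was called. Both AT4G08770 and AT3G50990 passed the filter through their reC3 libraries alone, which favoured a lower level in CAM. AT2G41480, a cationic wall-bound peroxidase of lignification, had 22 counts in CAM and 86 in reC3 and was not tested.

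Of the 32 tested members 2 were not called in the average. AT1G68850 had a log2 fold change of -0.28 ± 0.440 (adjusted p = 0.589, edgeR), and AT2G38380 one of -1.44 ± 0.690 (adjusted p = 0.0726, edgeR). AT1G68850 was called at no single time, while AT2G38380 was lower at MD (-3.23 ± 0.688). No tested member missed the threshold in all contrasts. For AT1G68850 the difference lay between times: it had 3.44, 1.85 and 2.84 CPM at EN in CAM, against 0.253, 0.119 and 0 CPM at ED in CAM.

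Between mid-night and midday, 17 members differed in CAM, 7 higher and 10 lower at MN (25.6% and 26.5% of all genes). In reC3 17 differed as well, 6 higher and 11 lower at MN (21.7% and 21.7% of all genes). In CAM, AT4G21960 had a log2 fold change (MN over MD) of 4.76 ± 0.338, AT1G71695 of 2.79 ± 0.321 and AT2G34060 of 2.88 ± 0.634, which was 3.57 without CAM MD replicate 2. AT3G49960 (-1.97 ± 0.302), AT4G37520 (-1.77 ± 0.319) and AT5G05340 (-1.41 ± 0.216) were lower at MN in CAM. In reC3, AT4G33420 changed by 2.69 ± 0.616, AT4G08770 by 1.60 ± 0.411 and AT4G21960 by 1.28 ± 0.286, and AT4G16270 (-3.52 ± 0.393), AT5G64100 (-3.32 ± 0.312) and AT1G49570 (-2.29 ± 0.226) were lower at MN. All of these passed edgeR's test.

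Between the end of the night and the end of the day, 12 members differed in CAM, 3 higher and 9 lower at EN (31.5% and 32.2% of all genes), and 21 in reC3, 9 higher and 12 lower at EN (29.1% and 28.8% of all genes). AT2G22420 was lower at EN in both modes. It averaged 1.64 ± 0.336 CPM at EN and 19.3 ± 5.24 CPM at ED in CAM (log2 fold change -3.55 ± 0.488), and 1.84 ± 0.487 CPM at EN and 56.3 ± 34.9 CPM at ED in reC3 (-4.92 ± 0.480). AT3G49960 (-3.32 ± 0.415 in CAM and -2.99 ± 0.286 in reC3) and AT4G37520 (-2.70 ± 0.382 and -2.80 ± 0.298) were lower at EN in both modes too. AT2G34060 was higher at EN in both, by 2.23 ± 0.563 in CAM and 3.34 ± 0.479 in reC3. AT3G28200 (2.42 ± 0.333) and AT1G24110 (2.72 ± 0.410) were higher at EN in reC3. Without reC3 EN replicate 1 these reC3 values were 2.56 for AT2G34060, 1.72 for AT3G28200 and 1.96 for AT1G24110. Scaled by library totals alone, the median of all genes for EN over ED shifted to -0.46 in CAM and -0.97 in reC3, so levels between these times depend on the scaling.

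The time of the highest group mean differed among members. By day, 12 members in CAM had their highest mean at MD and 6 at ED, against 11 at MD and 7 at ED in reC3. By night, 9 members in CAM had it at MN and 5 at EN, against 2 at MN and 12 at EN in reC3. The night counts in reC3 rested on reC3 EN replicate 1, without which 6 members were highest at MN and 7 at EN. In CAM 5 were highest at MN without CAM MN replicate 1, and 3 at EN without CAM EN replicate 1. The time was the same in both modes for 15 of the 32. Only 16 of the 32 reached the filter in CAM, so the time in CAM of the others rests on few counts. AT5G51890, for one, was highest at MN in CAM with 2 counts. The highest group mean of AT4G21960 was 61.5 times its lowest in CAM and 2.55 times in reC3. For AT5G05340 it was 2.76 times in CAM and 5.78 times in reC3, in the same order of times (EN, MN, ED, MD from low to high), where EN and MN and also ED and MD overlapped in CAM, and MN and ED overlapped in reC3. These comparisons across MD or MN and ED or EN also compare the 2 sets of libraries.

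The difference between modes itself varied with time (interaction, edgeR, adjusted p under 0.05) for 12 members, or 37.5%, against 46.8% of all genes. Among these 12 were 10 of the 15 members that reached the filter in both modes. The 5 with the smallest p and at least 5 CPM in a group were AT4G21960 (adjusted p = 4.88e-07, edgeR), AT2G35380 (0.000122), AT1G71695 (0.000232), AT5G05340 (0.00147) and AT3G49960 (0.0028). AT2G35380 had 3.28, 4.39 and 5.50 CPM in CAM, against 3.61, 2.66 and 2.94 CPM in reC3 at ED, which overlap. At MN it had 0.133, 0.621 and 0.695 CPM in CAM, against 5.20, 3.37 and 2.82 CPM in reC3, which do not. Its log2 fold change was 0.51 ± 0.300 at ED and -2.87 ± 0.387 at MN. AT3G49960 was lower in CAM at all 4 times, by 1.20 at MD and 3.16 at EN on the log2 scale.

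The rule did not reach all class III peroxidases. Of 73 Arabidopsis identifiers of the family, 50 were in the table, 46 of them with the description used here, and 23 were not analysed here. The other 4 stand under other descriptions. AT5G06720, described as peroxidase 2, had a mean of 3.10 CPM in CAM, against 27.9 CPM in reC3, and changed by -2.71 ± 0.136 (adjusted p = 2.20e-13, edgeR). AT3G17070 had 15 counts in CAM and 371 in reC3 and changed by -3.67 ± 0.590 (adjusted p = 1.31e-05, edgeR). AT3G49110 and AT5G22410 had 28 and 41 counts over all libraries and were not tested.

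Other genes of lignin formation were read from lists by Arabidopsis identifier. Of 14 tested genes of monolignol synthesis 10 were lower and 2 higher in CAM in the average, against 32.5% and 32.3% of all genes, with a median log2 fold change of -1.49. All 14 reached the filter on low counts in both modes. CCoAOMT1, which methylates caffeoyl-CoA, had a mean of 4.39 CPM in CAM, against 54.9 CPM in reC3 (-3.39 ± 0.166), and C4H, the cinnamate hydroxylase, one of 39.3 CPM in CAM, against 203 CPM in reC3 (-2.38 ± 0.151). CCR1, the first enzyme specific to monolignols, changed by -2.24 ± 0.147 and 4CL1, which makes the CoA esters, by -1.77 ± 0.135. The alcohol dehydrogenases CAD5 (1.46 ± 0.133) and CAD4 (1.43 ± 0.153) were the 2 higher in CAM. At ED alone, CAD5 (0.26) and CAD4 (0.11) were not called. They are close paralogs, between which reads cannot be told apart here. Of 11 tested laccases 7 were lower and none higher (median -2.95). But 5 of the 11 reached the filter in reC3 alone, which favoured a lower level in CAM. Of the 6 that reached it in both modes, 2 were lower (median -0.36). The mean of LAC17 was 0.854 CPM in CAM, against 31.6 CPM in reC3 (-5.04 ± 0.324), and that of LAC11 0.671 CPM in CAM, against 31.8 CPM in reC3 (-4.95 ± 0.378). LAC4 had 17 counts in CAM and 864 in reC3, a pooled ratio of 52.4 in favour of reC3 (32.5 to 90.4), and LAC10 8 counts and 400 counts, a ratio of 51.5 (25.9 to 120). LAC4 and LAC10 passed the filter through their reC3 libraries alone, which favoured a lower level in CAM. The CAM means of LAC17 and LAC11 lay below the filter's 1.42 CPM as well, so the same may hold for them. Chosen later for its level in CAM, LAC3 had 3.79 CPM in CAM, against 5.67 CPM in reC3 (-0.46 ± 0.156). In the average all of these genes passed edgeR's test.

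Of 8 tested NADPH oxidases, the source of superoxide outside the cell, 7 were lower in CAM and none higher (median -1.34), against 32.5% lower and 32.3% higher over all genes. Of the 6 that reached the filter in both modes, 5 were lower (median -1.18). RBOHF was at 4.93 ± 1.16 CPM in CAM, against 34.5 ± 13.3 CPM in reC3 (SD, n = 12 each), a log2 fold change of -2.73 ± 0.104 (adjusted p = 5.30e-15, edgeR). RBOHI changed by -2.42 ± 0.246, RBOHD by -1.45 ± 0.147 and RBOHA by -1.37 ± 0.125. By time, RBOHF and RBOHI were lower at all 4 times, whereas RBOHD and RBOHA were not called at MN (adjusted p = 0.111 and 0.0529, edgeR). RBOHI had a mean of 0.419 CPM in CAM, against 2.38 CPM in reC3. It passed the filter through its reC3 libraries alone, which favoured a lower level in CAM. Of 3 tested transcription factors of secondary walls, MYB58 was higher in CAM (0.99 ± 0.317, adjusted p = 0.00921, edgeR) and none was lower, with a median of 0.24. MYB85 was at -0.27 and SND1 at 0.24, neither of which passed the test. By time, MYB58 was called at MN alone and SND1 at EN alone, both higher in CAM. MYB46, MYB83, NST1 and VND7 had too few counts to be tested. They had 13, 0, 3 and 9 counts in CAM, against 13, 15, 13 and 8 in reC3.

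**Figure D5:**
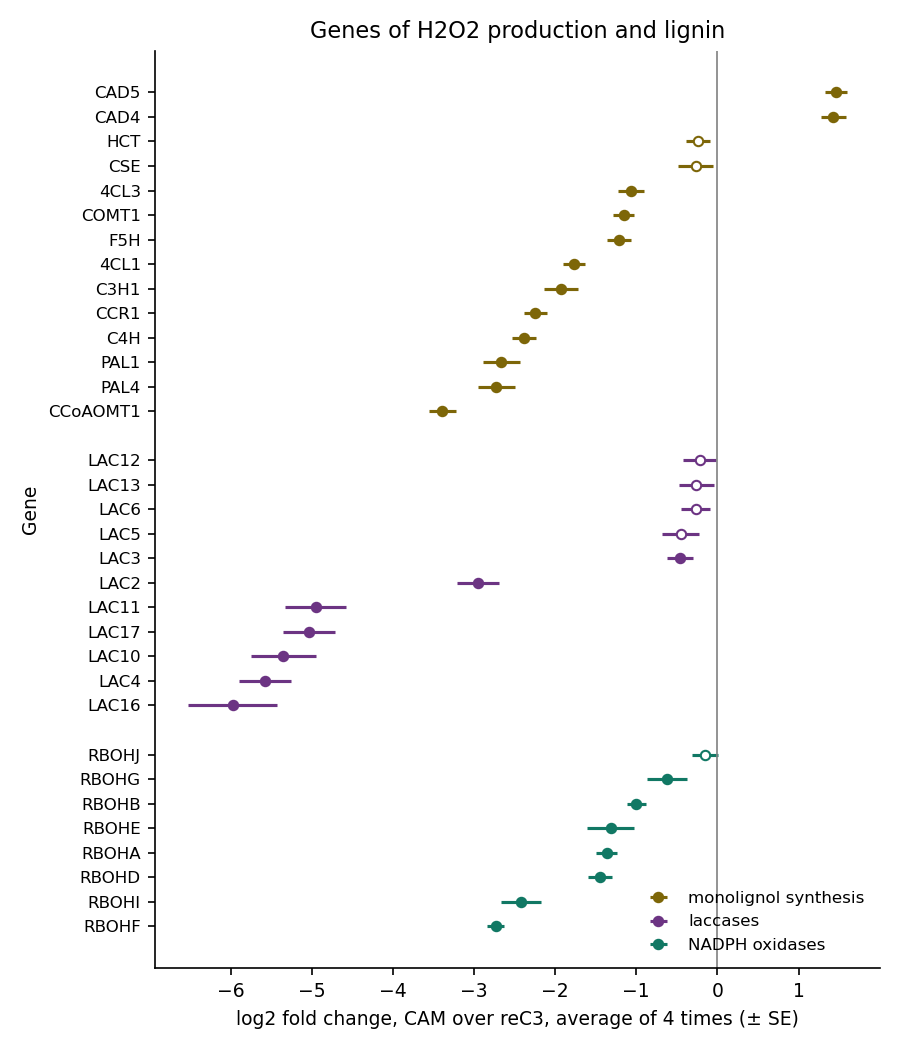
Log2 fold change (CAM over reC3, average of the 4 times, with SE) of the tested genes of monolignol synthesis, laccases and NADPH oxidases, filled where the adjusted p was under 0.05. CAD5 and CAD4 lie right of 0, and 24 filled points lie left of it. The fitted values of LAC4, LAC10 and LAC16 depend on the prior count, since each had 1 count or none in a CAM group.

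Markers of leaf cell types were read in the average as well, where 32.5% of all genes were lower and 32.3% higher in CAM. Of 5 xylem and secondary wall markers 4 were lower in CAM, and their summed level was 175 to 580 CPM in CAM libraries and 379 to 663 CPM in reC3 libraries. IRX5 (-1.87 ± 0.0882), IRX3 (-1.75 ± 0.0909) and IRX1 (-1.81 ± 0.122), the cellulose synthases of secondary walls, and XCP2 (-0.47 ± 0.0977) were lower, while XCP1, a protease of xylem vessels, was at 0.04. All 4 tested dividing cell markers were lower, but none reached the filter in CAM, which favoured a lower level there. They summed to 0.832 to 3.44 CPM in CAM and 7.48 to 117 CPM in reC3. Of the epidermis markers, LACS2 changed by -3.24 ± 0.127, and PDF2 (-0.35 ± 0.0994) and FDH (-0.23 ± 0.0685) changed little. Epidermis markers were lower in 3 of 3 (211 to 445 CPM in CAM and 304 to 784 CPM in reC3), guard cell markers lower in 3 and higher in 1 of 4 (22.9 to 203 CPM in CAM and 35.3 to 118 CPM in reC3), and phloem markers lower in 2 and higher in 1 of 3 (89.2 to 598 CPM in CAM and 157 to 972 CPM in reC3). Of 4 mesophyll markers 1 was lower, CAB3 (-1.07 ± 0.387), which was at -4.26 at EN and was not called at the other times. The 4 summed to 36220 to 98190 CPM in CAM and 15180 to 231400 CPM in reC3, so their sum was high in every library. The part of these cell types in the peroxidase values was not tested.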

How the data were processed

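Polyadenylated RNA of mature leaves was made into TruSeq v2 libraries, which do not mark strand, and read single-end (labels' protocols). The authors deposited raw read counts, unscaled per the file headers, for 22079 Arabidopsis identifiers. The tool CASAVA 1.8.2 and the annotation TAIR10 are named in the submitters' processing notes. Which aligner and counter made the counts is not given in the sources used here. Another 40 columns of values were not used.

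Genes were tested with edgeR 4.0.16 (R 4.3.3). Its filterByExpr (10 counts at the median library size in at least 3 libraries) kept 14065 genes. TMM scaling and the robust quasi-likelihood test were applied to the 24 libraries together, with 1 mean per group (common biological coefficient of variation 0.196), Benjamini-Hochberg adjustment over all genes and a threshold of 0.05. The script was tested on simulated data. A standard error (SE) is the log2 fold change divided by the root of F. Ratios of pooled TMM-scaled counts carry exact 95% binomial intervals. Replicates were further apart than sampling noise, with chi-square values of 3.91 to 128 for each degree of freedom.

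The members, lists and tests were chosen with earlier results of these data known. Named are the 10 members with the highest mean CPM, up to 8 in each direction in the average (at least 5 CPM in the higher mode, largest fold), 5 for the interaction, up to 3 in each direction at each time and between times, up to 4 genes of each list with the smallest adjusted p, the members called in no average, the class III peroxidases under other descriptions, and otherwise those said to be chosen later or for their annotation. No sequences were used here. The result of 1 marker list is not reported here. Alternatives were DESeq2 1.42.0, RLE scaling, library totals, no filter, a stricter threshold, a replicate block, the compared groups alone, each set of libraries alone, leaving out EN, and each library left out.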

Additional observations from a re-analysis of the deposited data

Results flagged for a closer look

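By edgeR's interaction test, the difference between CAM and reC3 varied between times of day for 12 of 32 tested peroxidase identifiers. That was 37.5%, against 46.8% of all genes. Among these 12 were 10 of the 15 members that reached the filter in both modes. The adjusted p was 4.88e-07 for AT4G21960, 0.000122 for AT2G35380, 0.000232 for AT1G71695, 0.00147 for AT5G05340, 0.0028 for AT3G49960 and 0.003 for AT4G33420 (edgeR). It was 0.00782 for AT3G28200, 0.00952 for AT1G24110, 0.019 for AT5G58390, 0.0215 for AT1G44970, 0.0298 for AT1G49570 and 0.0359 for AT2G24800 (edgeR). The log2 fold change (CAM over reC3) of AT4G33420 was 0.81 ± 0.739 at MD and -3.94 ± 0.628 at EN, where it had 0.897, 0.711 and 0.378 CPM in CAM, against 23.7, 3.36 and 5.32 CPM in reC3. AT1G24110 was at -0.63 ± 0.515 at ED and -3.68 ± 0.470 at EN. AT1G44970 was at -3.66 ± 0.406 at MD and -1.34 ± 0.531 at EN, and AT2G24800 at -0.08 ± 0.600 at MN and -2.74 ± 0.616 at EN. At EN, AT2G24800 had 0.568 to 0.995 CPM in CAM, against 13.9, 1.59 and 1.83 CPM in reC3. Without reC3 EN replicate 1 the log2 fold changes at EN were -1.02 for AT2G24800 (adjusted p = 0.0659, edgeR), -2.65 for AT4G33420, -2.93 for AT1G24110 and -2.77 for AT3G28200. Without CAM EN replicate 1 those at EN were -2.14 for AT1G44970 and -2.35 for AT1G49570. The interaction was no longer called without any 1 of 11 libraries for AT2G24800 (highest adjusted p = 0.0797, edgeR), without CAM MD replicate 1 or 2 for AT1G44970 (0.0562 and 0.0612), without CAM MN replicate 3 or CAM EN replicate 1 for AT1G49570 (0.052 and 0.171), and without CAM EN replicate 1 for AT5G58390 (0.051). As MD and MN libraries belong to another set than ED and EN libraries, the set and the time cannot be told apart where these pairs are compared.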

How the results depend on the processing

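Counts of members were compared with the reported ones under 468 combinations of result and setting, and 460 lay within 1.5 times the reported count. Members higher in CAM at MD numbered 0 with RLE scaling, 0 at an adjusted p under 0.01 with at least a 2-fold change, and 0 to 1 with a library left out, which is the call of AT1G71695 (adjusted p = 0.0518 with RLE scaling, edgeR). Members lower in CAM at EN numbered 15 when the libraries of the compared groups alone were fitted, because the filter then tested 18 members. With a library left out, 33 to 34 members were tested, and 30 to 32 were lower in the average, 23 to 28 at MD, 20 to 23 at ED, 19 to 23 at MN and 20 to 25 at EN. Of the values of single members under alternatives, 1749 kept their direction and side of the threshold and 8 kept only their direction (AT1G71695 at MD and AT2G22420 in the average). At the stricter threshold the calls over all genes fell to 788 higher and 1871 lower in the average, 1066 and 1750 at MD, 1105 and 1733 at ED, 815 and 1428 at MN, 1418 and 2347 at EN, and to 4207 in the interaction. They fell to 3630 (CAM) and 2567 (reC3) for MN over MD, and to 5502 (CAM) and 4680 (reC3) for EN over ED. DESeq2 called 32 members lower and 1 higher of 46. Library totals alone gave 1767 genes higher at ED, against 3026 with TMM. The compared groups alone gave 2681 genes lower at EN, against 4111.

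Little pairing of samples by replicate number was seen: of 84 same-numbered pairs 16 had correlations of their deviations over 0.1 (median 0.00997), and 10 of 24 libraries correlated best with their own number. The highest correlation was 0.373, between reC3 MD and reC3 EN replicate 1, so the check cannot exclude a pairing of some samples. With the number as a replicate block, 30 members were lower and 1 higher in the average and 13 differed in the interaction. Depth limits members with few counts in CAM, where fitted folds depend on the prior count.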
